A study of Mus musculus with 4 samples.

Results

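The cells described here were late neutrophils of the mouse femoral epiphysis, the cartilaginous end of the thigh bone in which marrow spaces form after birth. A cell was taken as a late neutrophil when S100a8 and S100a9 together made up at least 3% of its unique molecular identifiers (UMIs, which count captured RNA molecules) and the secondary granule genes Ngp, Camp, Ltf and Lcn2 together made up less than 3%. Cells needed 500 genes and 1000 UMIs or more, and no more than 15% of UMIs from mitochondrial genes. They also had less than 3% of UMIs from Col2a1, Col9a1, Col9a2, Col9a3 and Acan, and no UMI of Cd79a or Cdh5. The cells were thus selected on their S100a8, S100a9, granule and chondrocyte gene UMIs, and these values support nothing below. The rule was met by 811 cells, 243 on postnatal day 10 and 568 on postnatal day 12, of 26282 cells that passed the quality limits on these days and 49055 in the whole series. The series held 4 droplet libraries of WT mice, 1 each at 7, 8, 10 and 12 days after birth, made with a MobiDrop 3′ kit. The labels' protocol gives enzymatic digestion and removal of red cells, but names another tissue at the digestion step, so how this tissue was dissociated is uncertain. The number and sex of the animals behind a library were not given in the sources used here. With 1 library per day no test between days was possible. All intervals below are exact 95% intervals that cover counting error only, and a gene was called higher or lower at 1.5-fold or more.

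Neutrophils mature in the marrow through ordered stages, each marked by the granule proteins made at that time. Promyelocytes make the proteases and myeloperoxidase of primary granules, the next stages make the secondary granule proteins lactoferrin, cathelicidin and lipocalin-2, and the last stages make gelatinase granule proteins and acquire the receptors of circulating cells. S100a8 and S100a9 encode the calgranulins, calcium-binding proteins that are abundant in the neutrophil cytosol.

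The promoters of 4 genes on which the description turns are shown for reference: S100a8 and S100a9, which chose the cells, Retnlg, which stood highest over all other cells, and Il1b, which was furthest above immature neutrophils. The windows run from 250 bases before to 50 bases after the RefSeq start of each gene, matched by symbol, in build GRCm38.p6. They lie at chr3:90668821-90669120 on the plus strand (S100a8), chr3:90695672-90695971 on the minus strand (S100a9), chr16:48872358-48872657 on the plus strand (Retnlg) and chr2:129371090-129371389 on the minus strand (Il1b). Each is written 5′ to 3′ on the gene's strand. Capitals mark matches, on either strand, to the letters searched for C/EBP (TTGCNNAA), PU.1 (GAGGAA), AP-1 (TGANTCA) and the TATA box (TATAAA), and to an NF-kB motif.
S100a8: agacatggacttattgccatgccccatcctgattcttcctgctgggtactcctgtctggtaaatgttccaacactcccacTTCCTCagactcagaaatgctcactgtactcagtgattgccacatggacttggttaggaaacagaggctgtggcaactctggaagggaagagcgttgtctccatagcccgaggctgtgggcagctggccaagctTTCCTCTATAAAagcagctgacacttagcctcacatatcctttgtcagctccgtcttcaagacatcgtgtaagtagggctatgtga
S100a9: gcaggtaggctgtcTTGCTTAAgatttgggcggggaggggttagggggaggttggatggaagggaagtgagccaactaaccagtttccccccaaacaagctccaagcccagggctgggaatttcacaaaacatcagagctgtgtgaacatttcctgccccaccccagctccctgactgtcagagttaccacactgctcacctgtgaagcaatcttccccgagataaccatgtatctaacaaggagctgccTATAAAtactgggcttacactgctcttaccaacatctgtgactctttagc
Retnlg: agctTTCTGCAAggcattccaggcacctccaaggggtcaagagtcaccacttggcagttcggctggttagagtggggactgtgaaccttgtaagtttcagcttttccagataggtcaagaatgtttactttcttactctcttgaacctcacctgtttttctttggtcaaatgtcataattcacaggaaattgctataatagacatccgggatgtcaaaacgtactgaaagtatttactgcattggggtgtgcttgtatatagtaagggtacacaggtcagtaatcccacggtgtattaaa
Il1b: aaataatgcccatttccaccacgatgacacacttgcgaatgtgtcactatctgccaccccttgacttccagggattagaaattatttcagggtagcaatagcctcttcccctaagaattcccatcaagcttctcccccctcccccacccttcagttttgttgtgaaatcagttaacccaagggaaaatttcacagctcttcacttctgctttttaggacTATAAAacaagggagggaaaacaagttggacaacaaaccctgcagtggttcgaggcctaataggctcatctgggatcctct
S100a8 held 2 PU.1 matches, of which the second ran directly into a TATA match that begins at position -30 from the start. S100a9 held a C/EBP match at -236 and a TATA match at 1, Retnlg a C/EBP match at -246, and Il1b a TATA match at -31. None of these 4 windows held the AP-1 or NF-kB letters. Of all 32851 RefSeq windows of this length, 10.8% held the C/EBP letters, 28.3% PU.1, 7.81% AP-1, 0.411% NF-kB and 13.6% TATA. A match describes the letters and is not evidence of binding.

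The late neutrophils were shallow cells. Their median was 3630 UMIs and 1365 genes on day 10 and 1684 UMIs and 945 genes on day 12. Immature neutrophils of the same libraries had medians of 7692 and 3540 UMIs. The libraries held 132282322 and 169323978 UMIs in all, and shared 282 cell barcodes, of which 1 was a late neutrophil in both. RNA of other cell types was present in late neutrophils: 10 stromal and osteoblast genes took a median of 1.99% on day 10 (range 0.173% to 16.3%) and 2.52% on day 12 (range 0.202% to 9.31%), and 10 erythroid genes 1.58% on day 10 (range 0.116% to 56.7%) and 0.358% on day 12 (range 0% to 44.1%). Ddx3y, a Y-linked helicase gene, had no UMI in the late neutrophils of day 10 and 97.5 counts per 1000000 UMIs (CPM) in those of day 12, at least 49.9-fold higher against a floor of 3 counts. Xist, an X-linked gene, was detected on both days, with a log2 ratio of -0.84 for day 12 over day 10. Day, sex and library cannot be told apart.

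Late neutrophils made up 2.42% (2.13% to 2.74%) of 10028 cells kept on day 10 and 3.49% (3.22% to 3.79%) of 16254 on day 12. The same limits gave 1 cell among 11309 on day 7 and 5 among 11464 on day 8, of which 2 had primary granule genes at 1% of UMIs or more. Immature neutrophils, which met the other limits but had secondary granule genes at 3% or more, made up 2.30% (2.02% to 2.62%) on day 10 and 1.61% (1.42% to 1.82%) on day 12. There were 1.05 (0.875 to 1.27) late cells per immature cell on day 10, 243 against 231, and 2.17 (1.87 to 2.52) on day 12, 568 against 262. The order of the shares depended on depth. Among cells with at least 1000 genes and 2000 UMIs, late neutrophils made up 2.59% on day 10 and 1.29% on day 12. The number of late cells per immature cell was not counted among these deeper cells, so its dependence on depth was not tested. On day 12, 173 late cells met this filter. The median late cell of day 12 had 1684 UMIs, and the 10th percentile of immature cells was 1692.6 UMIs.

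**Figure D1:**
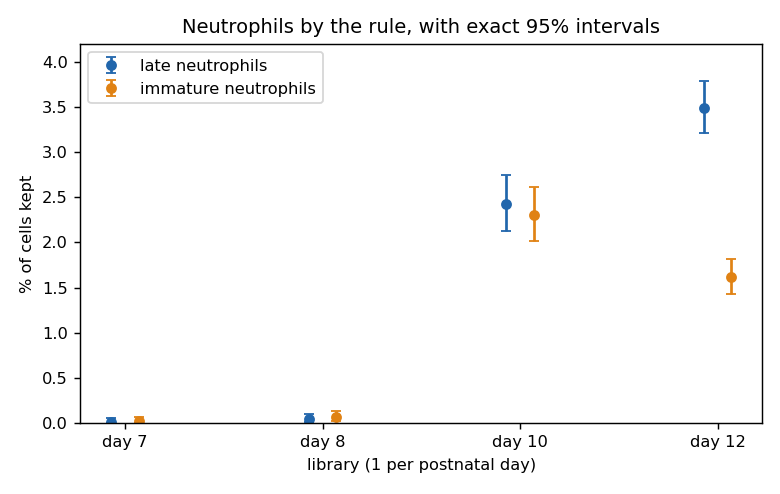
Share of cells kept (%) that were late or immature neutrophils in each of the 4 libraries, by postnatal day, with exact 95% intervals for counting error. Late neutrophils stand at 2.42% on day 10 and 3.49% on day 12, and both classes are near 0 on days 7 and 8.

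The limits cut through a continuous spread of cells. On day 10, 18 cells lay just inside the calgranulin limit, at 3% to 3.5%, and 20 just outside, at 2.5% to 3%. Those inside had 375 CPM of Retnlg and 3068 CPM of Elane, the elastase of primary granules, and those outside 81.7 and 6654 CPM. On day 12 the 69 cells inside had 3004 CPM of Retnlg and 2042 CPM of Il1b, and the 74 outside 2113 and 1099 CPM. At the secondary granule limit, 13 cells inside and 20 outside on day 10 had 6810.1 and 6759.9 CPM of Retnlg, and 19 inside and 17 outside on day 12 had 3868 and 8915 CPM. Chondrocyte genes, Cd79a or Cdh5 kept out 90 of 333 cells that met both granule limits on day 10 and 54 of 622 on day 12.

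**Figure D2:**
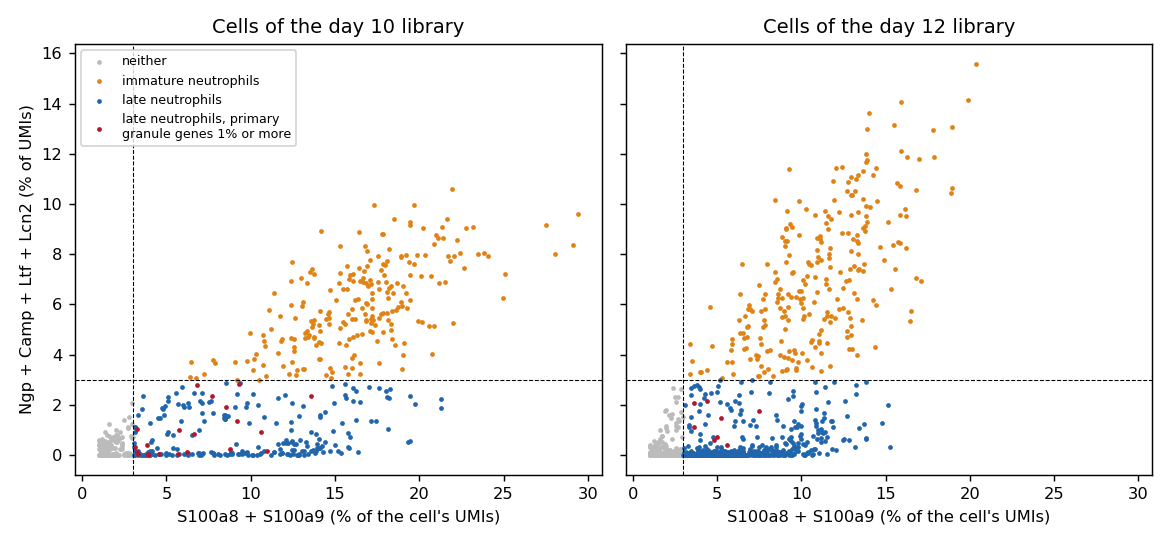
Each point is a cell of the day 10 (left) or day 12 (right) library with S100a8 and S100a9 at 1% of UMIs or more. Most cells of a library lie below that and are not drawn. Points are placed by the share of UMIs from S100a8 and S100a9 (x axis, %) and from Ngp, Camp, Ltf and Lcn2 (y axis, %). Dashed lines mark the 3% limits. Cells that met both limits but were kept out by chondrocyte genes, Cd79a or Cdh5 are not drawn. Late neutrophils lie below the granule limit to the right of the calgranulin limit, and 21 and 8 of them carry primary granule genes at 1% of UMIs or more.

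Of the 4 genes given as markers of these cells, Retnlg was the one that was higher in late than in immature neutrophils on both days. S100a8 stood at 49547 CPM on day 10 and 25365 on day 12 in late neutrophils, 93193.5 and 44584 in immature neutrophils, and 928 and 220.5 in cells outside the neutrophil, progenitor and monocyte classes, called other cells below. S100a9 stood at 36803 and 36293 CPM against 70199.5 and 61217 in immature cells. Both genes belong to the rule, so these values are a description. Stfa1, a stefin A that inhibits cysteine proteases, stood at 37025 against 64126 CPM on day 10 and 17055.5 against 18242 on day 12. Retnlg, which encodes the secreted resistin-like gamma, stood at 8482 (8337 to 8629) against 1923 CPM on day 10 and 13839 (13639 to 14042) against 4087 on day 12, a 4.41-fold difference (4.27 to 4.56) and a 3.39-fold difference (3.28 to 3.49). As a description, it led the genes by fold over all other cells kept, at 93.01-fold and 156-fold, followed on both days by Il1f9, an interleukin-36 cytokine gene, and Asprv1, a protease gene. With each cell thinned to 1000 UMIs, Retnlg was detected in 69.5% (63.3% to 75.3%) of late neutrophils on day 10 and 84.3% (81.1% to 87.2%) on day 12, and in 7.60% and 4.25% of other cells. Single cells varied widely: the median late neutrophil had 6935 CPM of Retnlg on day 10 and 8616 on day 12, the 10th percentile was 0 and 0, and the 90th 30251 and 39193.

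UMIs of a 3′ kit count molecules irrespective of transcript length, so the order of CPM levels between genes does not rest on length. How completely each gene was counted was not tested, and some genes, such as Itgam, had 0 UMIs in every cell kept. The 15 genes of highest level, leaving out mitochondrial and ribosomal protein genes, were S100a8, S100a9, Stfa1, Cstdc5, Hbb-bs, Cstdc4, Tmsb4x, Col1a1, Retnlg, Stfa2, Col1a2, Hba-a1, Malat1, Rn18s and Camp. Stfa1, Cstdc5, Cstdc4 and Stfa2 belong to the stefin A family, a tandem array of similar copies between which counting may divide reads, so their separate values are uncertain. The globins and bone collagens are products of other cells: Hbb-bs stood at 26477 and 6543 CPM in late neutrophils and 47557 and 8641 in other cells, and Col1a1 at 10801 and 14214 against 46341 and 44724.

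The label did not hold for every cell that met the rule. Primary granule genes (Mpo, Elane, Prtn3 and Ctsg) made up 1% of UMIs or more in 21 of 243 cells on day 10 (8.64%, 5.43% to 12.9%) and 8 of 568 on day 12 (1.41%, 0.610% to 2.76%). These cells had medians of 20718 and 6827 UMIs and held 26.7% and 7.27% of all late neutrophil UMIs. Their Elane stood at 7728 and 6772 CPM and their Retnlg at 17.04 and 20.97 CPM, and they had no UMI of Il1b. In the remaining late neutrophils Elane stood at 251 and 187 CPM and Retnlg at 11571 and 14922 CPM. Cells with 3 or more of 8 monocyte and macrophage genes numbered 31 (12.8%) on day 10 and 19 (3.35%) on day 12. Cells with stromal genes or globins at 5% of UMIs or more numbered 68 (27.98%) and 59 (10.4%).

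Late and immature neutrophils were compared within each library over all genes with at least 20 UMIs in both sums together. On day 10, 38% of 9326 genes were higher in late cells and 5.69% lower, 43.7% in all, and on day 12 22.2% of 8908 were higher and 13% lower, 35.2% in all. The median log2 ratio of all genes was 0.40 on day 10 and 0.10 on day 12. With that median set to 0, the day 10 split was 1770 higher and 1414 lower in place of 3541 and 531, and the day 12 split 1663 and 1454 in place of 1979 and 1160. Scaled without the dominant genes, the splits were 2970 and 713 on day 10 and 1515 and 1643 on day 12. Of 3787 genes with enough UMIs to be named, 453 were higher and 133 lower on both days, and 16 had opposite calls.

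Most genes of mature neutrophils were higher in late than in immature cells. In that list 16 of 19 tested genes were higher and 1 lower on day 10 (median log2 ratio 1.33), and 15 of 19 higher and 1 lower on day 12 (median 1.72). Il1b, which encodes the inflammatory cytokine interleukin-1 beta, stood at 265 (239.9 to 292) against 12.1 CPM on day 10 and 1246 (1186 to 1308) against 10.2 on day 12, a 21.9-fold difference (14.99 to 33.1) and a 122-fold difference (71.1 to 229.6). After thinning, 18.5% of late cells on day 10 and 56.9% on day 12 had an Il1b UMI, against 2.16% and 1.15% of immature cells and 8.04% and 4.75% of monocytes. Csf3r, the receptor for granulocyte colony-stimulating factor, stood at 203 (181 to 227) against 42.6 CPM on day 10 and 819.9 (772 to 870.4) against 89.6 on day 12. Cxcr2, a chemokine receptor that draws neutrophils out of the marrow, stood at 98.3 (83.3 to 115) against 55.2 CPM on day 10 and 291 (263 to 322) against 85.6 on day 12. Il1r2, the decoy receptor for interleukin-1, had log2 ratios of 2.13 and 3.30. Wfdc21, a small secreted protein gene, was lower on both days, at -1.05 and -1.20.

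Cytokines, chemokines and their feedback inhibitors were also higher. In this list 21 of 23 tested genes were higher and 0 lower on day 10 (median log2 ratio 1.58), and 20 of 22 higher and 0 lower on day 12 (median 1.83). Cxcl2, a chemokine that acts on Cxcr2, stood at 1824 (1757 to 1893) against 175 CPM on day 10 and 1652 (1583 to 1723) against 58.9 on day 12. Ccl6, another chemokine, stood at 433 against 21.7 CPM on day 10 and 1297 against 66.00 on day 12, and Ptgs2, the inducible cyclooxygenase, at 64.5 against 0.836 CPM on day 10 and 357 against 18.1 on day 12. The day 10 value of Ptgs2 in immature cells lies near 0, so the size of that difference is uncertain. Its 99 UMIs in late cells of day 10 came from 30 cells, and 5 cells held 50.5% of them. Osm, the cytokine oncostatin M, had log2 ratios of 1.27 and 1.25. Genes known to respond to tissue dissociation moved with them: 13 of 16 tested genes were higher and 0 lower on day 10 (median log2 ratio 1.14), and 11 of 16 higher and 0 lower on day 12 (median 1.43). Dusp1, a phosphatase of that list, stood at 589.8 against 125 CPM on day 10 and 2105 against 323 on day 12. The part of dissociation in the cytokine values was not tested.

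The 12 genes furthest above immature neutrophils on both days were Il1b, Ptgs2, Ccl6, Nlrp3, Clec4d, Sirpb1b, St3gal6, Ifitm1, Pla2g7, Cxcl2, Acod1 and Arg2. Nlrp3, the sensor of the inflammasome that activates interleukin-1 beta, stood at 185 against 9.62 CPM on day 10 and 469 against 15.7 on day 12. Clec4d, a C-type lectin receptor, had log2 ratios of 4.23 and 4.08. Acod1, which makes itaconate, had ratios of 3.29 and 4.57, and Arg2, the mitochondrial arginase, 3.00 and 3.64. The 12 furthest below were Inhba, Chil3, Ffar2, Zmpste24, AA467197, Ly75, Mlst8, Ankrd22, Cd177, Ifitm6, Cybb and Itgb2l. Chil3, a chitinase-like protein of neutrophil granules, stood at 405 against 2513 CPM on day 10 and 259.8 against 3728 on day 12. Cd177, a neutrophil surface protein, had log2 ratios of -1.55 and -2.14, and Itgb2l, an integrin beta chain, -1.44 and -1.93. All 24 kept their direction when the cells with primary granule genes at 1% or more were left out.

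**Figure D3:**
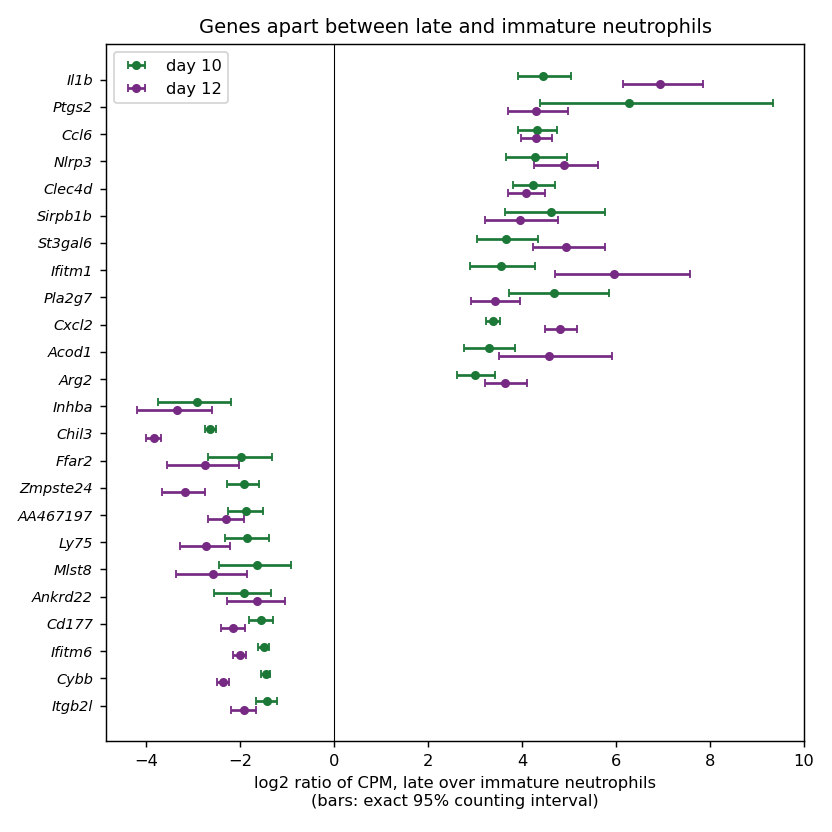
Log2 ratio of CPM in late over immature neutrophils for the 12 genes furthest above and the 12 furthest below, on day 10 (green) and day 12 (purple), with exact 95% counting intervals. Il1b reaches 4.45 on day 10 and 6.93 on day 12. The genes were chosen to have the same direction in both libraries, so both lie on the same side of 0 by construction.

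The share of surface receptors that were higher was near the 38% of all genes on day 10 and above the 22.2% of day 12. Among receptor and adhesion genes 14 of 33 tested genes were higher and 1 lower on day 10 (median log2 ratio 0.42), and 21 of 33 higher and 3 lower on day 12 (median 0.91), while the day 10 median was 0.025 with the median of all genes set to 0. Ccr1, a chemokine receptor, had log2 ratios of 1.38 and 2.16, Tlr2, a receptor for bacterial lipoproteins, 2.00 and 1.82, and Selplg, a selectin ligand, 1.73 and 2.09. Ltb4r1, the leukotriene B4 receptor, was lower on both days, at -0.84 and -1.61. Itgam, Fpr2 and Lilrb4a had 0 UMIs in every cell kept of both libraries and could not be measured.

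The NADPH oxidase, which makes the respiratory burst, was not higher as a group: 0 of 7 tested genes were higher and 3 lower on day 10 (median log2 ratio -0.41), and 1 of 7 higher and 2 lower on day 12 (median -0.56). Cybb, its catalytic subunit gp91phox, stood at 599.6 (562 to 639.6) against 1649.7 CPM on day 10 and 508 (470.4 to 548) against 2615 on day 12. After thinning it was detected in 29.6% and 22.4% of late cells and 73.6% and 90.5% of immature cells. Hvcn1, a proton channel that serves the burst, had log2 ratios of -1.08 and -1.99.

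Granule genes differed by granule type. The 4 secondary granule genes of the rule were lower by construction. Of the 8 others, 5 were lower and 1 higher on day 10, and 5 lower and 1 higher on day 12, with Ceacam10 and Tcn2 within 1.5-fold on both days. The higher gene was Hdc, the histidine decarboxylase that makes histamine, at 148 against 70.2 CPM on day 10 and 578 against 191 on day 12. Hdc encodes an enzyme, and its place in this list does not make it a granule protein gene. In late neutrophils with secondary granule shares of 1% to 3% it stood at 135 and 259 CPM, and under 0.1% at 176 and 791 CPM, on days 10 and 12. Gelatinase granule genes were mixed. On day 10, 4 of 10 tested genes were higher and 3 lower (median log2 ratio 0.25), and on day 12 3 of 10 were higher and 3 lower (median -0.062). The shares that were higher were near those of all genes, 38% on day 10 and 22.2% on day 12. Of all genes, 5.69% and 13% were lower. Mmp8, the neutrophil collagenase, stood at 851 (805 to 898) against 651 CPM on day 10 and 927 (876 to 981) against 1049 on day 12, within 1.5-fold on both days. Ly6g, a surface antigen used to gate neutrophils, had log2 ratios of -1.19 and -1.89, and Adam8, a membrane protease, 0.86 and 1.33. In the primary granule list 9 of 10 tested genes were higher and 0 lower on day 10 (median log2 ratio 2.38), and 5 of 9 higher and 0 lower on day 12 (median 1.06), but without the 29 cells with these genes at 1% or more the medians were 0.22 and -0.075.

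In the calgranulin and stefin A list 1 of 13 tested genes were higher and 7 lower on day 10 (median log2 ratio -0.66), and 4 of 13 higher and 4 lower on day 12 (median -0.011). Cstdc5 stood at 27261 against 56856 CPM on day 10 and 12358 against 19546 on day 12, and Stfa3 at 4501 against 10801 CPM on day 10 and 2764 against 7089.9 on day 12. S100a6, a calcium-binding protein that many cell types make, was higher on both days, at 1.58 and 1.62. Among transcription factors 10 of 18 tested genes were higher and 1 lower on day 10 (median log2 ratio 0.64), and 10 of 18 higher and 3 lower on day 12 (median 0.77). Cebpb, a C/EBP factor of late and emergency granulopoiesis, had log2 ratios of 1.56 and 1.65, and Junb, an AP-1 subunit, 2.27 and 2.45, while Cebpe, which drives secondary granule genes, had -1.01 and -1.60.

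Cell cycle genes were lower: 0 of 22 tested genes were higher and 8 lower on day 10 (median log2 ratio -0.44), and 0 of 22 higher and 17 lower on day 12 (median -0.83). Mki67, a marker of dividing cells, stood at 182 against 314 CPM on day 10 and 162 against 373 on day 12. Of the genes of other cell types, 9 of 10 erythroid genes were higher in late cells on day 10 and 4 of 8 on day 12. Of 11 monocyte genes 10 were higher on day 10, while on day 12 3 were higher and 1 lower, near the share of all genes. That share was 38% higher on day 10 and 22.2% on day 12. Of 12 chondrocyte genes 8 were higher on day 10 and 11 on day 12, with 0 lower. Of 11 macrophage genes 5 were higher and 2 lower on day 10, and 8 higher and 0 lower on day 12. Stromal and osteoblast genes were higher in 6 of 8 on day 10 and 3 of 9 on day 12, with 0 and 1 lower. The summed monocyte list stood at 1845 and 1311 CPM in late neutrophils, 852 and 1449.7 in immature neutrophils and 7598 and 6069 in monocytes, and its member Irf8 had 0 UMIs throughout. The part of this RNA in the other differences was not tested.

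Late neutrophils were ordered by their share of secondary granule genes, which the rule limits to under 3%. On day 10, 75 cells had a share under 0.1%, 53 had 0.1% to 0.5%, 24 had 0.5% to 1% and 91 had 1% to 3%. On day 12 these numbers were 332, 116, 35 and 85. The lowest band held 30.9% (25.1% to 37.1%) of late neutrophils on day 10 and 58.5% (54.3% to 62.5%) on day 12. Thinned to 1000 UMIs, 23.05% (17.9% to 28.9%) on day 10 and 44.9% (40.8% to 49.1%) on day 12 had no UMI of these 4 genes, and 28.4% (22.8% to 34.5%) and 67.4% (63.4% to 71.3%) had a UMI of Il1b or Cxcr2.

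Genes peaked at different points of this order. From the highest to the lowest granule band, Retnlg stood at 7731, 13336, 13727 and 4893 CPM on day 10 and 11265, 28832, 20163 and 10259 CPM on day 12, highest in the middle. Mmp8 stood at 1019, 1073, 989 and 432 CPM and 1081, 1661, 1125 and 589 CPM. Il1b was highest in the cells with the least granule RNA, at 28.96, 274, 303 and 610.2 CPM on day 10 and 67.1, 219.5, 1363 and 2276 CPM on day 12. Csf3r had the same order, at 75.3, 196, 236 and 386 CPM and 115, 363, 879 and 1411 CPM. Mki67 stood at 249, 125, 99.9 and 144 CPM on day 10 and 393, 115, 72.2 and 36.04 CPM on day 12, falling at each step on day 12 only. Elane did not have the same form in both libraries, at 1756, 3612, 2827 and 2262 CPM on day 10 and 1769, 888, 140.1 and 18.02 CPM on day 12. The lowest band held 5 of the 21 primary granule cells on day 10 and 0 of the 8 on day 12. Median UMIs from the highest to the lowest band were 4917, 2898.5, 4138 and 3318 on day 10 and 2739, 2037, 1833 and 1550.5 on day 12.

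**Figure D4:**
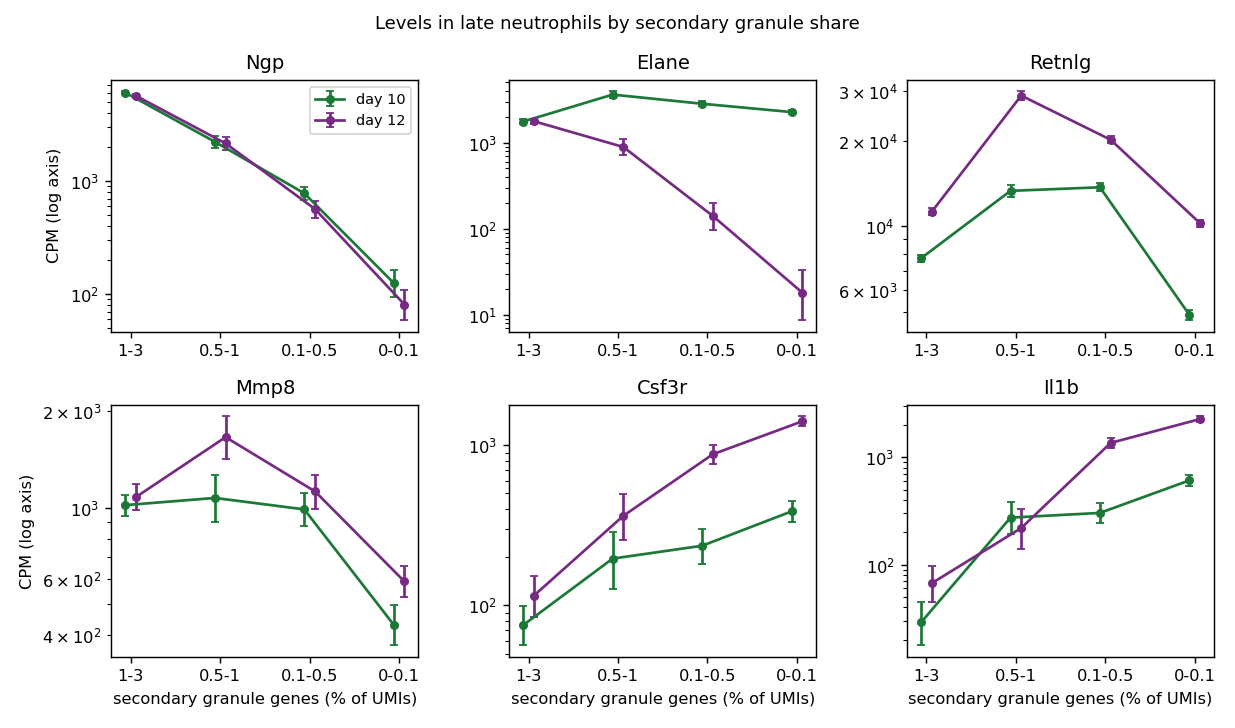
CPM (log axis, with exact 95% intervals) of 6 genes in late neutrophils across the 4 bands of secondary granule share, on day 10 (green) and day 12 (purple). Ngp follows the bands by construction, Retnlg is highest in the middle bands, Csf3r and Il1b are highest in the band under 0.1%, and Elane is 2262 CPM there on day 10 and 18.02 on day 12.

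Late neutrophils of day 12 were then compared with those of day 10. Of 9252 genes, 29.5% were higher and 14.8% lower, 44.3% in all, and the median log2 ratio was 0.22. With that median set to 0 the split was 1884 higher and 1994 lower in place of 2727 and 1371, and scaled without the dominant genes it was 1981 and 1898. Among mature neutrophil genes 14 of 19 genes were higher and 2 lower (median 1.18). That median was 0.90 without the primary granule cells and 1.32 within the lowest granule band. Il1b was 4.70-fold higher (4.22 to 5.25), a log2 ratio of 2.23, or 1.90 within the lowest band, and its ratio in other cells was 1.67. Csf3r was 4.04-fold higher (3.56 to 4.59), with a log2 ratio of 1.70 in other cells. Cxcr2 was 2.96-fold higher (2.45 to 3.60), with 1.05 in other cells. The primary granule cells held 26.7% of late neutrophil UMIs on day 10 and 7.27% on day 12. Ratios of single genes between days include this difference unless given without those cells. Wfdc17 and Wfdc21 were lower, at -0.85 and -0.72.

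Among receptor and adhesion genes 19 of 33 genes were higher and 2 lower on day 12, against 29.5% higher and 14.8% lower of all genes. Tlr4, the endotoxin receptor, stood at 16.3 (10.5 to 24.03) CPM on day 10 and 96.8 (80.7 to 115) on day 12, a log2 ratio of 2.57 against -0.023 in other cells. Cxcr4, which retains neutrophils in the marrow, stood at 44.9 (34.95 to 56.9) CPM on day 10 and 138 (119 to 159.5) on day 12, with 0.018 in other cells. Among transcription factors 12 of 18 genes were higher and 3 lower. Among cytokines and their inhibitors 11 of 23 genes were higher and 4 lower, the latter near the share of all genes. The median of that list was 0.38, against 0.22 for all genes. Osm was 3.03-fold higher (2.62 to 3.52), Cxcl2 had a log2 ratio of -0.14, and Nfkbia, the inhibitor of NF-kB, -0.92. Among dissociation genes 9 of 16 genes were higher and 2 lower, and Dusp1 was 3.57-fold higher (3.31 to 3.85) while its log2 ratio in other cells was -1.01. The part of dissociation in the difference between days was not tested.

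Among gelatinase granule genes 6 of 10 genes were higher and 1 lower on day 12 (median 0.68, or 0.40 without the primary granule cells). Retnlg was 1.63-fold higher (1.60 to 1.67), but its log2 ratio of 0.71 was 0.37 without the primary granule cells, under 1.5-fold. Mmp9, gelatinase B, had a log2 ratio of 1.40 and Mmp8 0.12. In the secondary granule list 1 of 12 genes were higher and 2 lower (median -0.18). The share that was lower was near the 14.8% of all genes, of which 29.5% were higher. The enzyme gene Hdc was 3.91-fold higher (3.37 to 4.56), and Fcnb, a ficolin, and Chil3 had log2 ratios of -1.49 and -0.64. On day 10, 5 cells held 65.3% of the UMIs of Chil3. Among primary granule genes 0 of 10 genes were higher and 7 lower (median -1.79), but the median was -0.10 without the primary granule cells. In the calgranulin and stefin A list 2 of 13 genes were higher and 5 lower. S100a8 had a log2 ratio of -0.97, S100a9 -0.02 and Stfa1 -1.12, and in other cells these were -2.07, -1.22 and -2.18. Within the lowest granule band the list's median was 0.26, against -0.26 over all late neutrophils and -0.60 without the primary granule cells.

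**Figure D5:**
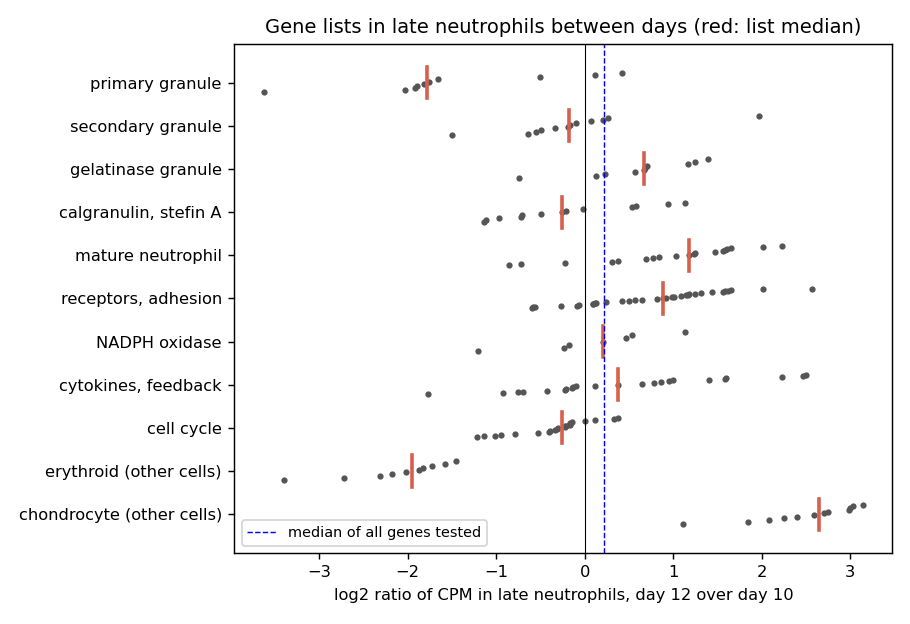
Log2 ratio of CPM in late neutrophils, day 12 over day 10, for each tested gene of 11 lists, with list medians in red and the median of all genes as a dashed line at 0.22. The mature neutrophil median lies at 1.18 and the primary granule median at -1.79.

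Among the 10 genes with the highest ratios on day 12 were Cilp, Col2a1, Treml4, Col9a3, Matn1, Matn3, Atp6v0d2, Col11a2 and Hapln1, most of which encode cartilage matrix. The 10 lowest were Msmp, Sec61g, Ctsg, Cox6b2, Car2, Postn, Zc3h12b, Rhag, Hba-a2 and Igf1. Several of these rested on few cells of day 10: 5 cells held 73.1% of the UMIs of Msmp, 72.3% of Postn, 67.5% of Rhag, 66.4% of Ctsg, 66.4% of Igf1, 63.3% of Zc3h12b and 62.4% of Car2. Col2a1, the main cartilage collagen, which the rule limits, stood at 619.8 (581 to 660.4) CPM on day 10 and 5460.4 (5335 to 5588) on day 12, a log2 ratio of 3.14 against 2.37 in other cells. Of the tested chondrocyte genes 12 of 12 were higher on day 12, and of the erythroid genes 10 of 10 were lower. Cilp, a cartilage matrix gene, rested on 1 cell that held 116 of its 129 UMIs on day 12, and its log2 ratio of 3.24 was -0.33 with the secondary granule limit at 2%. Treml4, a receptor of the TREM family, stood at 18.9 (12.6 to 27.1) CPM on day 10 and 165 (143 to 188) on day 12, a log2 ratio of 3.12 against 0.75 in other cells, and its 216 UMIs on day 12 came from 135 cells. In immature neutrophils it stood at 17.6 and 18.9 CPM. Ctsg, cathepsin G of primary granules, had a log2 ratio of -3.62.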

How the data were processed

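Single-cell libraries of days 10 and 12 were used for the comparisons and those of days 7 and 8 for cell numbers. The authors' deposited values are raw UMI counts per gene and cell. Their build is GRCm39, as the submitters' processing notes list it. The counting program was not given in the sources used here, and the labels' dissociation protocol names a different tissue. No doublet caller was run. Counts were summed over the cells of a class in a library and scaled to CPM (Python 3.11.15, numpy 2.4.6, scipy 1.17.1). Levels have exact Poisson, shares Clopper-Pearson and ratios conditional binomial 95% intervals. A sum of 0 was set to 3 counts. Thinning kept 1000 UMIs per cell, with 2000 other cells drawn. Other cells include those the rule left out. The comparison was tested on simulated sums without variation between cells, so that test could not show the weight of single cells in a sum. Genes were named by rule: the 15 highest levels, and, with at least 100 UMIs, the 10 highest and lowest ratios between days and the 12 between classes, ranked by the library with the smaller difference; 1 predicted gene was passed over, and some items are not reported here. Genes named between classes had to have the same direction in both libraries. Other genes are examples from the lists. The members and gene lists were chosen with earlier results of these data known. Alternatives changed the limits, depth, scaling, filter and fold; those without primary granule cells, without cells high in stromal genes or globins, and within the lowest granule band were chosen after seeing the data.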

Additional observations from a re-analysis of the deposited data

Results flagged for a closer look

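The same limits applied to the day 8 library, which the comparisons do not use, gave 5 cells among 11464 cells kept, 0.0436% (0.0142% to 0.102%). The floor of 3 counts corresponds to 0.0262%, which lies within that interval. Of the 5 cells, 2 had primary granule genes at 1% of UMIs or more, for which the label of late neutrophil does not hold. The remaining 3 make up 0.0262%, the same as the floor. The 5 cells had 1415 to 10722 UMIs each and together held 922 UMIs of S100a8, 327 of Retnlg and 2 of Il1b. None of their barcodes was a late neutrophil on another day.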

How the results depend on the processing

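The share of late neutrophils on days 10 and 12 was 2.87% and 4.41% with a calgranulin minimum of 2%, 1.90% and 2.05% with 5%, and 1.52% and 2.97% with a secondary granule limit of 1%. It was 1.99% on day 10 with a limit of 2%, 2.11% on day 10 without cells with monocyte or macrophage genes, and 1.29% on day 12 among deeper cells. Late cells per immature cell were 2.73 on day 12 at the 2% minimum, 0.827 and 1.27 at 5%, 0.727 and 1.74 at the 2% limit, and 0.658 and 1.84 at the 1% limit. Genes higher and lower between days were 1331 and 461 with at least 100 UMIs, 4328 and 2748 with 1 UMI in each sum and 1289 and 615 at 2-fold, 627 were lower after thinning, and the split was 1981 and 1898 when scaled without dominant genes. Against immature cells on day 10 they were 1326 and 218 with 100 UMIs, 6622 and 1195 with 1 UMI, 1710 and 214 at 2-fold, 1054 and 330 after thinning, 1770 and 1414 with the median of all genes set to 0 and 2970 and 713 without dominant genes. There 1009 were lower without primary granule cells and 952 as a mean over cells. On day 12 they were 833 and 405 with 100 UMIs, 3570 and 2331 with 1 UMI, 983 and 475 at 2-fold and 1515 and 1643 without dominant genes, and 1766 were lower at the 1% limit. The day ratio of Cilp reversed, at -0.33 with the 2% and -0.67 with the 1% limit. Against immature cells on day 12 some list medians reversed. At the 2% limit they were -0.27 for macrophage, -1.30 for dendritic and -0.43 for osteoclast genes. The primary granule median was -0.29 at the 1% limit, -0.075 without primary granule cells and -0.10 after thinning. The erythroid median was -0.32 at the 1% limit, -0.063 as a mean over cells and -0.023 after thinning. Stricter filters and folds count fewer genes by construction; elsewhere the cause was not tested. No paired analysis was possible because each day has 1 library, and no library could be left out. Depth limits the shares and the numbers of late cells per immature cell, since the median late neutrophil of day 12 had 1684 UMIs.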
